A study of Mus musculus with 4 samples.

Results

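Retinoic acid is the active form of vitamin A, and 9 mouse genes that bind it, make it, limit its supply or act as its receptors are described here. They were chosen by name from the 27178 genes of the deposited table: Crabp1 and Crabp2, Dhrs3 and Aldh1a2, Rara, Rarb and Rarg, and Rxra and Rxrg. The study sequenced RNA of neural crest-derived cells sorted from Wnt1-tdT mouse embryo guts, taken 11.5 days post coitum, and asked how cells at the front of the migrating stream differ from those behind it. The wavefront group holds 2 libraries of cells from the invasive front, and the trailing group holds 2 libraries of cells lying 1 to 1.5 mm behind it. Both groups share the Wnt1-tdT genotype, the age, the enzymatic dissociation and the sort for tdT, a red fluorescent reporter tied by its name to Wnt1, a gene active in the dorsal neural tube and early crest. The labels do not say how many embryos went into a library or whether replicates are separate litters, so each p-value reflects variation among these 4 libraries alone, and that variation may be technical.

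Vitamin A circulates as retinol and is oxidised in cells to retinaldehyde and then to retinoic acid, the last step by retinaldehyde dehydrogenases such as Aldh1a2. Retinoic acid enters the nucleus and binds receptors of the RAR family, which sit on DNA as heterodimers with RXR receptors and switch on target genes when the ligand is bound. In the developing gut it is needed for crest cells to enter and colonise the bowel, and mice without Aldh1a2 activity or with too little vitamin A lack enteric neurons along part or all of the gut.

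The libraries were shallow, and most members were counted by few reads. Totals ran from 258457 reads in wavefront replicate 2 to 535636 in wavefront replicate 1, of which 114972 and 452144 lay outside ribosomal RNA. Ribosomal RNA took 55.5% of wavefront replicate 2 and 15.6 to 26.1% of the other 3 libraries. Crest markers were present in all 4, with Ret, the receptor for GDNF, at 1413 and 155 reads in the wavefront libraries and 864 and 545 in the trailing libraries, and 9 or 10 of the 10 listed crest markers had a read in each library. Levels are given as reads and as scaled CPM, which is CPM recomputed after TMM scaling. TMM sets a common level from the bulk of genes, so a fold change is relative to other genes and not an amount per cell. In these bulk sorts, fewer cells of a type and less RNA per cell cannot be told apart.

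Of the 9 members, 8 had a read and 4 had enough reads for the count test, in which edgeR's quasi-likelihood F test was run on whole reads worked back from the authors' CPM. Dhrs3 fell at the wavefront, 3 did not pass and 0 rose, at a Benjamini-Hochberg adjusted p under 0.05 over all 5759 genes tested. Over all genes 1.74% were called, of which 1.34% of those tested were lower and 0.399% higher at the wavefront. The median log2 fold change was -0.98 over the 4 tested members, all of which lay below 0. Over all genes tested it was 0.01, and 49.1% lay below 0. Dhrs3 and Rara had enough reads for this test through their trailing libraries alone. Crabp1 had enough in both trailing libraries but, at the wavefront, in replicate 1 alone. Rxra, which was higher at the wavefront, did not have enough. The shared direction of the 4 is thus partly set by the read filter and is not read as a result. In limma on log2(CPM + 1), the test that fits the deposited unit, 0 of 8 members passed, where 0% of 12519 genes were called; 2 members and 858 genes had an unadjusted p under 0.05.

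Among the 8 members with a read, the wavefront libraries lay below both trailing libraries for Crabp1, Dhrs3, Rara and Rarb and above both for Rxra, while the groups overlapped for Crabp2, Rarg and Aldh1a2. Over all genes with a read, 19.8% lay lower and 12.7% higher without overlap, so 4 of 8 and 1 of 8 are read against those shares.

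**Figure D1:**
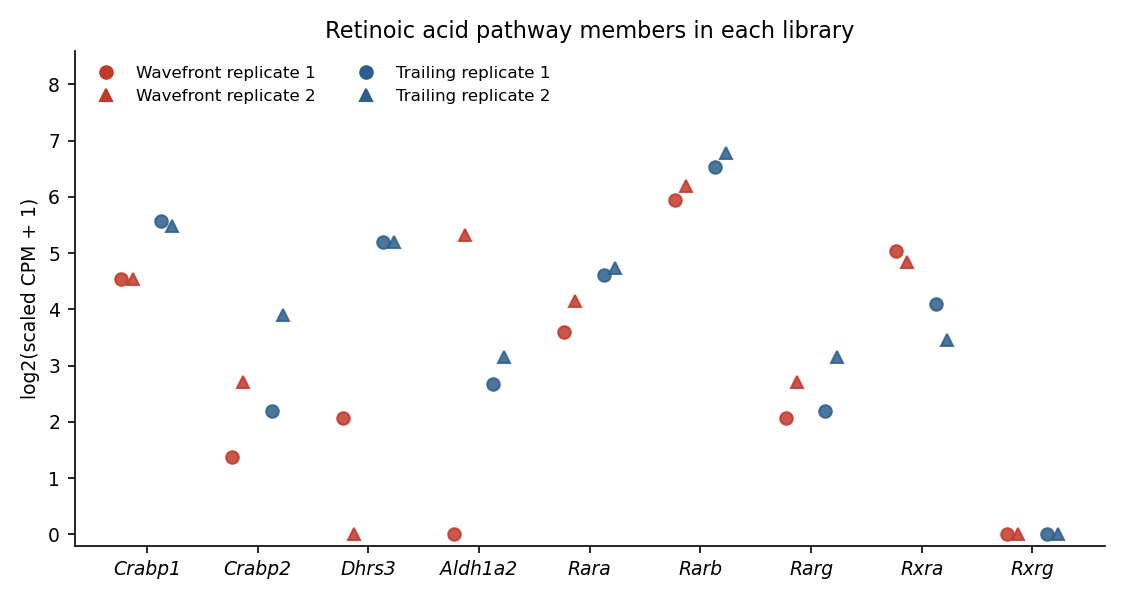
Level of each member in each library, as log2(scaled CPM + 1), with wavefront libraries in red and trailing libraries in blue; a point at 0 has no read. Dhrs3 shows the widest gap between groups, and Aldh1a2 the widest gap between the wavefront libraries, at 0 and 7 reads.

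Dhrs3 encodes a short-chain reductase that turns retinaldehyde back into retinol and so limits how much retinoic acid is made. It lies on chromosome 4 (144892827 to 144928209, plus strand, GRCm38), and no other annotated gene overlaps it. Wavefront replicate 1 had 2 reads and wavefront replicate 2 had 0, against 20 and 18 reads in the trailing libraries. In scaled CPM these were 3.18 and 0 at the wavefront and 35.9 and 35.8 in trailing cells, so the groups stood far apart and the trailing libraries were almost equal. At the mean trailing level wavefront replicate 1 would have held 22.5 reads and wavefront replicate 2 would have held 6.43, against the 2 and 0 observed. The scaled ratio, wavefront over trailing, was 0.0691 (95% exact binomial interval 0.00807 to 0.267, for counting error only), which is 14.5 times lower (3.74 to 124 times). The fitted log2 fold change was -3.73 ± 0.78 (SE, n = 2 each; edgeR adjusted p = 0.00217), and a fold fitted to so few wavefront reads depends on the prior count.

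The fall of Dhrs3 passed in 6 of 10 alternative settings of the count test that gave it an adjusted p, with adjusted p from 0.000297 to 0.9997. It did not pass without wavefront replicate 1 (edgeR adjusted p = 0.0594), where the remaining wavefront library has no read and the fitted log2 fold change was -6.90, without trailing replicate 1 (0.0974) or without trailing replicate 2 (0.79, a setting in which 0 of all genes passed). The p-value of the authors' deposited table was 0.00617 before adjustment, on a shrunken log2 fold change of -1.25, and did not pass after it. In limma the log2 fold change of Dhrs3 was -4.22 ± 0.90 with an adjusted p of 0.68, and with the replicate number as a block the limma adjusted p was 0.00283.

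Markers of differentiating enteric neurons moved in the same direction as Dhrs3. Without ribosomal RNA, the 11 listed neuron markers together made up 1177 and 1052 CPM of the wavefront libraries and 4729 and 5199 CPM of the trailing libraries, with all 11 above 0 in every library but wavefront replicate 2, where 1 was at 0. Of these 11, 10 fell in the count test, where 1.34% of all genes tested fell. The list was chosen with earlier results of these data known, so that count is not independent evidence of a direction. Tubb3, a neuronal beta tubulin and the marker with the most reads, had 266 and 62 reads at the wavefront against 783 and 668 in trailing cells. The part of these markers in the fall of Dhrs3 was not tested.

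The first of the sequences printed here belongs to the member whose level changed, and the second to the receptor gene that is itself a textbook target of retinoic acid, since its promoter lets receptor and ligand be read together. Each gives the 250 bases before a RefSeq transcript start (GRCm38.p6), 5′ to 3′ on the gene's strand. The search, on both strands, was for a direct repeat of a 6-base receptor motif with a spacer of 5 bases, and capitals mark the repeat where it was found. The motif was AGGTCA, its consensus form. Also taken was AGTTCA, in which an inner base differs, and both forms were taken with a G at the start, as in GGTTCA. Dhrs3 lies at chr4:144892577-144892826 on the plus strand and Rarb at chr14:16575477-16575726 on the minus strand.
Dhrs3: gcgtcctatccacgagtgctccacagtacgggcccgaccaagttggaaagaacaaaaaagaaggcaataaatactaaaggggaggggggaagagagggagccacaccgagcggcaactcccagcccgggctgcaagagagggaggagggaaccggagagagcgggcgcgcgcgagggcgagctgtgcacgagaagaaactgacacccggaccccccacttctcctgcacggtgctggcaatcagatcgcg
Rarb: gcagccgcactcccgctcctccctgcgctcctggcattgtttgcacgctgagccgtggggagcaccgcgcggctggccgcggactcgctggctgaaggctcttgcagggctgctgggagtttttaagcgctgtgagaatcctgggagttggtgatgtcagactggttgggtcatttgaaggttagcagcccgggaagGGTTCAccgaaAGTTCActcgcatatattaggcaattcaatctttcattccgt

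The repeat in Rarb, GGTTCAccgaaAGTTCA, begins 53 bases before the transcript start. As background, this is the response element through which RARs are known to raise Rarb transcription. Windows of 300 bases around starts were held for 8 of the 9 members, in 16 windows, and Rarb was the 1 member with the repeat. Over all 32851 RefSeq windows 0.0974% held it, in 31 genes, of which 5 had a read here and 1, Rarb, was tested by counts. The single 6-base motif was found in at least 1 window of 5 members, Rara, Rarb, Rarg, Rxra and Rxrg, and in 43.7% of all windows. Most of these genes have more than 1 window, and some windows of Rara, Rarg and Rxra did not hold the motif. The count of genes is therefore not to be set against the share of windows. Dhrs3 has more than 1 window, of which the most upstream is the one printed from, and none held the repeat or the single motif. No match in the Dhrs3 windows says only that these letters are not in them.

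Rarb, the retinoic acid receptor beta, had the most reads of the 9 members. It spans chromosome 14 from 16430839 to 16819156 on the minus strand, so the start shown above lies inside the span and belongs to a shorter transcript. It had 38 and 13 reads in the wavefront libraries, against 51 and 55 in the trailing libraries. In scaled CPM these were 60.5 and 72.4 at the wavefront and 91.5 and 109 in trailing cells, so the groups did not overlap, though the nearest libraries of the groups were close. The log2 fold change was -0.64 ± 0.33 (95% interval -1.31 to 0.02; edgeR adjusted p = 0.528), an interval that reaches past 0. Exons of Rarb share 1793 bases with those of Top2b, a topoisomerase gene on the other strand with 81 and 16 reads at the wavefront and 55 and 63 in trailing cells. The libraries do not keep the strand, so reads of these shared bases cannot be told apart.

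Rara, the receptor alpha that most cells express, had 7 and 3 reads in the wavefront libraries and 13 and 13 in the trailing libraries. Both wavefront libraries, at 11.1 and 16.7 scaled CPM, lay below the trailing libraries, at 23.3 and 25.8 (log2 fold change -0.95 ± 0.60; edgeR adjusted p = 0.661). Rarg, the receptor gamma of mesenchyme and epithelium, had 2 and 1 reads against 2 and 4, and the groups overlapped. With so few reads the scaled ratio of Rarg, 0.656, had a counting interval from 0.106 to 3.07, so neither a rise nor a fall was detectable at this depth.

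Rxra, a partner with which RARs bind DNA, was the 1 member whose wavefront libraries both lay above the trailing libraries. It had 20 and 5 reads at the wavefront and 9 and 5 in trailing cells, which is 31.8 and 27.9 scaled CPM against 16.1 and 9.94. The scaled ratio was 2.34 (95% exact binomial interval 1.17 to 4.88, counting error only). Rxra did not reach the filter of the count test. Without that filter, where 0.802% of 14589 genes were called, its log2 fold change was 1.23 ± 0.53 (edgeR adjusted p = 0.553), and in limma it was 0.89 ± 0.58 (adjusted p = 0.772). Rxrb, another RXR gene that is not among the 9 members, had 5 and 1 reads at the wavefront and 1 and 6 in trailing cells. Its groups overlapped, and it is not part of the receptor shares given below. Rxrg, the partner found in muscle and parts of the nervous system, had 0 reads in all 4 libraries. At a floor of 3 reads this allows up to 5.52 and 11.5 CPM before TMM scaling in wavefront replicates 1 and 2. In trailing replicates 1 and 2 it allows up to 5.80 and 6.64 CPM before scaling. In scaled CPM, 3 reads are 4.77 and 16.7 in the wavefront libraries and 5.38 and 5.96 in the trailing libraries.

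The make-up of the receptor reads does not depend on how libraries are scaled. Within the RAR genes, Rarb took 80.9% and 76.5% of reads in the wavefront libraries and 77.3% and 76.4% in the trailing libraries, and these shares differed by less than their counting intervals. Summed over Rara, Rarb and Rarg, the wavefront libraries had 47 and 17 reads and the trailing libraries 66 and 72, or 74.8 and 94.7 scaled CPM against 118 and 143. Rxra took 29.9% (95% exact binomial interval 19.3 to 42.3%) and 22.7% (7.82 to 45.4%) of the reads of the 4 receptor genes at the wavefront, and 12.0% (5.64 to 21.6%) and 6.49% (2.14 to 14.5%) in trailing cells. The 2 wavefront shares were both above the trailing shares, though the interval of wavefront replicate 2 covers the share of trailing replicate 1 and overlaps both trailing intervals, and 2 libraries a group cannot give an exact permutation p under 0.333.

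**Figure D2:**
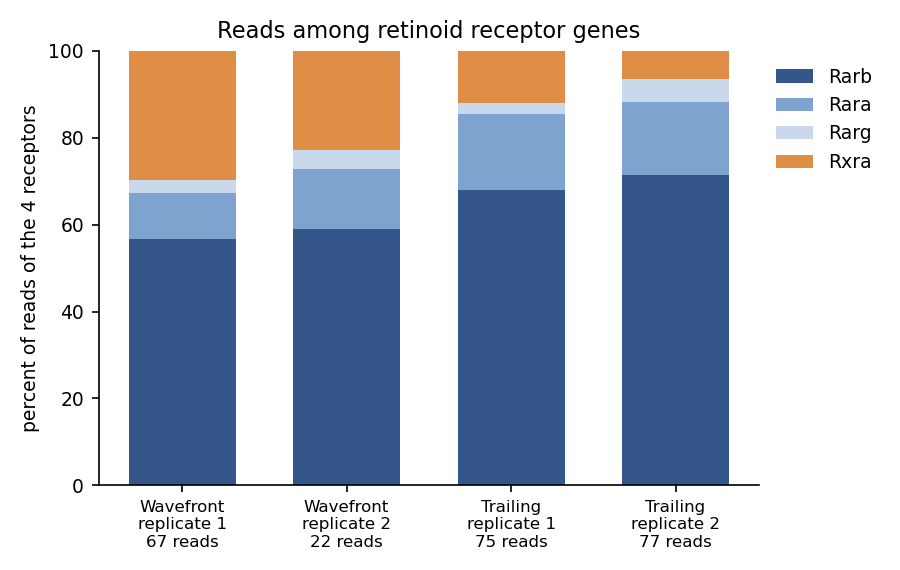
Share of the reads of Rarb, Rara, Rarg and Rxra taken by each gene, in percent, for the wavefront libraries and then the trailing libraries, with the number of reads under each bar. The Rxra part is 29.9% and 22.7% at the wavefront against 12.0% and 6.49% in trailing cells.

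Crabp1 and Crabp2 encode small proteins that hold retinoic acid in the cytoplasm; Crabp2 is known to pass it on to RARs, and Crabp1 is a classical marker of migrating crest cells. Crabp1 (chromosome 9, 54764748 to 54773110) had 14 and 4 reads in the wavefront libraries and 26 and 22 in the trailing libraries. In scaled CPM it stood at 22.3 and 22.3 at the wavefront and 46.6 and 43.7 in trailing cells, so the groups did not overlap. The second wavefront value rests on 4 reads, so the closeness of the wavefront values says little about their spread. The log2 fold change was -1.01 ± 0.45 (95% interval -1.93 to -0.10; edgeR adjusted p = 0.42), and it did not pass in any of 11 alternative settings of the count test. Crabp2 had 1 and 1 reads at the wavefront against 2 and 7, with overlapping groups and a scaled ratio of 0.292 (0.0307 to 1.41, counting error only). Crabp1 gave 93.3% and 80.0% of the reads of the pair at the wavefront and 92.9% and 75.9% in trailing cells, with intervals that overlap.

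Aldh1a2, the enzyme that makes retinoic acid in embryonic mesoderm, split the wavefront libraries. It had 0 reads in wavefront replicate 1 and 7 in wavefront replicate 2, against 3 and 4 reads in the trailing libraries. The 39.0 scaled CPM of wavefront replicate 2 stood above every other library, and all wavefront reads behind the summed ratio of 1.31 (0.393 to 4.39) came from it. Without wavefront replicate 1 the limma log2 fold change was 1.77, while with all libraries it was -0.63 ± 1.52 (limma adjusted p = 0.952).

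Wavefront replicate 2 also had the highest summed CPM of the gut mesenchyme, gut epithelium, mesothelium and erythroid markers. With ribosomal RNA left out, the 14 gut mesenchyme markers made up 509 and 1453 CPM of the wavefront libraries and 233 and 245 CPM of the trailing libraries, with 7 and 2 of them at 0 at the wavefront and 7 and 6 in trailing cells. The 6 mesothelium markers summed to 4 and 4 reads at the wavefront and 2 and 3 in trailing cells. In CPM outside ribosomal RNA these sums were 8.85 and 34.8 at the wavefront and 5.17 and 9.07 in trailing cells. Of these reads, Gpm6a gave 4 and 2 at the wavefront and 2 and 3 in trailing cells. Upk1b gave the rest in wavefront replicate 2 and had none in the other libraries. The defining genes Wt1, Upk3b, Msln and Lrrn4 were at 0 in all 4 libraries. Sums of 2 to 4 reads are too few to read mesothelium as present or absent. The 8 gut epithelium markers gave 12 and 10 reads against 3 and 3, the 7 erythroid markers 1 and 110 against 2 and 0, the 6 endothelium markers 28 and 7 against 18 and 16, and the 6 leukocyte markers 2 and 1 against 2 and 5. Of the mesenchyme list, Col3a1 had the most reads, with 132 and 94 at the wavefront and 65 and 58 in trailing cells. The part of these cells in the reads of Aldh1a2 was not tested.

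**Figure D3:**
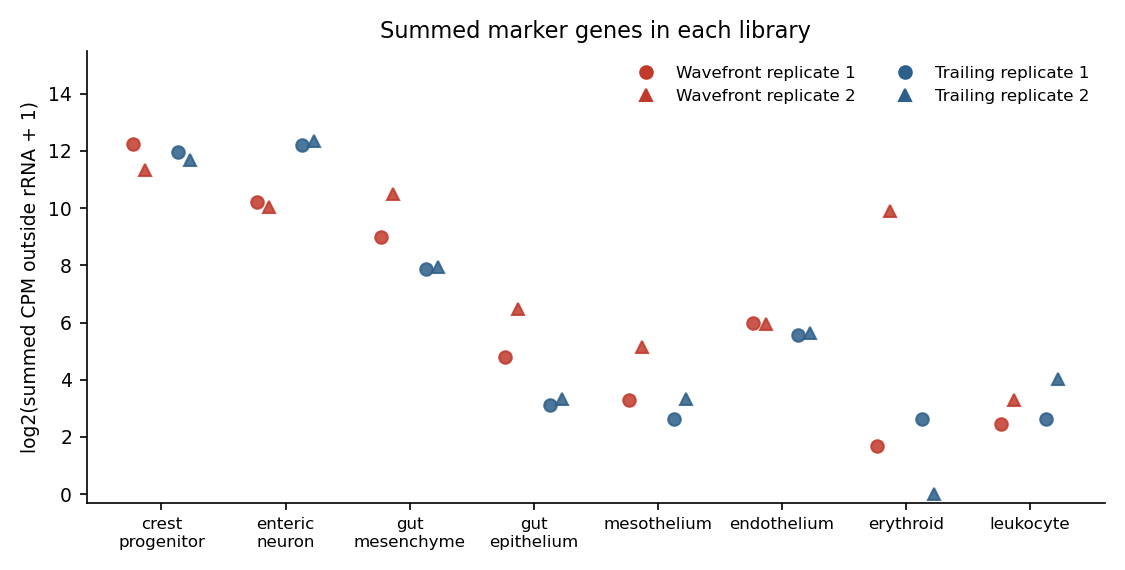
Summed level of each marker list in each library, as log2(summed CPM outside ribosomal RNA + 1), wavefront in red and trailing in blue. The neuron sums are 1177 and 1052 at the wavefront against 4729 and 5199 in trailing cells, and the erythroid sum stands out in wavefront replicate 2, at 957.

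Per kilobase of annotated exon, so that genes of different length can be compared, Crabp1 had the highest value of the members in every library. In wavefront replicate 2 that place rests on 4 reads of Crabp1, against 7 of Aldh1a2 and 13 of Rarb, and is not firm. Crabp1 stood at 27.8 and 27.8 scaled CPM per kilobase at the wavefront and 58.2 and 54.5 in trailing cells. Rarb stood at 11.5 and 13.8 against 17.4 and 20.8. In trailing cells Dhrs3 came next at 12.3 and 12.2, ahead of Rara at 5.34 and 5.92, while Crabp2 ranged from 2.71 to 10.5 and could not be placed against Rara, Aldh1a2 or Rxra. At the wavefront Rxra, at 5.83 and 5.10, lay below Rarb and above Rara, at 2.55 and 3.83. The order of Rxra and Rara in wavefront replicate 2 rests on 5 against 3 reads and is not firm. In trailing cells Rxra, at 2.96 and 1.82, lay below Rara. Aldh1a2, at 0 and 17.2 in wavefront replicates 1 and 2, could not be placed at the wavefront, since it was above Rarb in replicate 2 and without a read in replicate 1. At the wavefront Dhrs3, at 1.09 and 0, could not be placed against Rarg, at 0.747 and 1.31, and Rxrg was at 0 in every library. The exon length is that of all annotated transcripts joined, so a gene read mainly from a short transcript is placed too low.

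**Figure D4:**
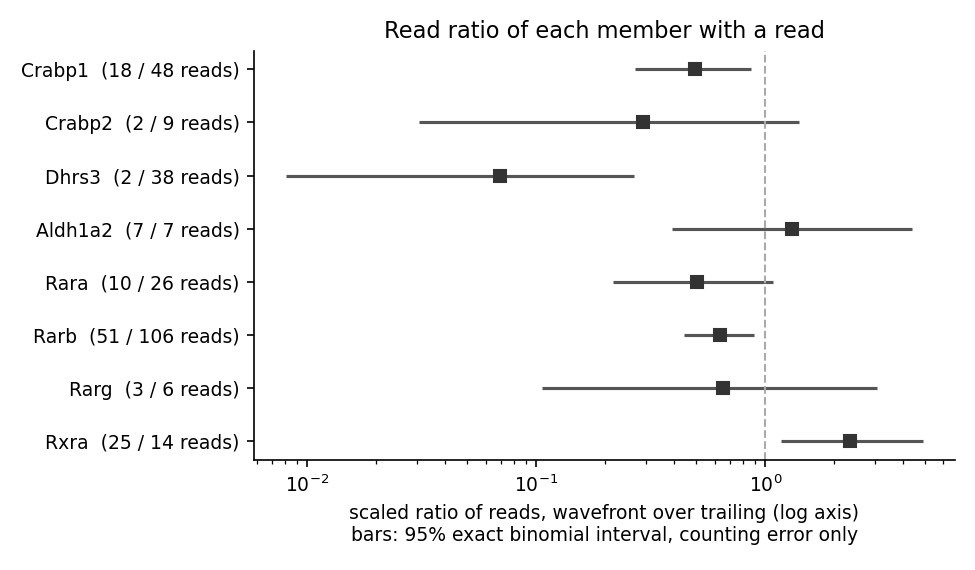
Scaled ratio of summed reads, wavefront over trailing, on a log axis, for the 8 members with a read, with wavefront and trailing reads beside each name. Bars are 95% exact binomial intervals for counting error only; those of Crabp1, Dhrs3 and Rarb lie below 1, that of Rxra above 1 and the other 4 cover 1.

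Other genes of the pathway were taken in 3 lists that hold none of the 9 members. Of their 59 genes, 45 had a read and 20 were tested by counts, of which 4 fell, 0 rose and 16 did not pass, where 1.34% of all genes fell. Their median log2 fold change was -0.25, with 13 of 20 below 0. In limma 0 of 42 tested passed and 4 had an unadjusted p under 0.05, where 858 of all 12519 genes did. The lists were drawn up with earlier results of these data known, including falls of Dhrs3, Hoxb5, Hoxd3 and Tlx2, so their counts are not independent evidence of a direction. Hoxb5, Nedd9 and Tlx2 also passed the read filter through their trailing libraries alone, so the number below 0 is partly set by that filter.

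Of the 23 genes of retinoid transport and metabolism described here, 3 were tested and 0 passed, with 0 at an unadjusted p under 0.05 in the count test and 0 in limma; their median log2 fold change was -0.03. Adh5, a widely expressed alcohol dehydrogenase, was at -0.03 ± 0.31 (edgeR adjusted p = 0.99), and Rdh13, a retinol dehydrogenase, at 0.79 ± 0.42 (0.549). The degrading enzymes Cyp26a1 and Cyp26c1 had no read and Cyp26b1 had 1, in trailing replicate 2.

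Among 16 receptor partners and cofactors, 9 were tested and 0 passed, with 0 at an unadjusted p under 0.05 in the count test and 0 in limma; their median log2 fold change was 0.03. Hdac3, a deacetylase of the corepressor complex, was at 0.13 ± 0.31 (edgeR adjusted p = 0.94), where scaling by library total and leaving out wavefront replicate 2 each turned the sign. Ncor1, the corepressor that unliganded RARs recruit, was at -0.16 ± 0.32 (edgeR adjusted p = 0.932).

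The third list holds 20 genes reported to answer to retinoic acid in one tissue or another, of which 8 were tested. Of these, 4 fell, where 1.34% of all genes tested fell, and 4 did not pass. The median log2 fold change of the 8 was -0.96. Hoxb5, Nedd9 and Tlx2 had enough reads for this test through their trailing libraries alone. The falls and the median of this list are thus partly set by the read filter and are not read as a direction of the list. Hoxb5, a homeobox gene needed for enteric crest development, had 11 and 2 reads at the wavefront against 40 and 59 in trailing cells, and its log2 fold change was -2.54 ± 0.43 SE (edgeR adjusted p = 9.7e-05). Nedd9, a scaffold protein of focal adhesions, had 9 and 2 at the wavefront and 42 and 38 in trailing cells, at -2.45 ± 0.45 on the log2 scale (edgeR adjusted p = 0.000297), so both wavefront libraries lay far below the nearly equal trailing libraries. Hoxd3 had 36 and 9 against 78 and 69 (-1.33 ± 0.33; edgeR adjusted p = 0.0159), and Tlx2, an enteric homeobox gene whose place in the list is the least sure, had 10 and 0 against 54 and 47 (-2.95 ± 0.46; edgeR adjusted p = 1.76e-05). Ret, at 0.25 ± 0.40 (edgeR adjusted p = 0.907), and Meis1, a partner of Hox proteins, at -0.58 ± 0.33 (0.592), did not pass. These falls went with the lower neuron marker sums of the wavefront libraries, whose part was not tested. All 4 calls of this list were lost without trailing replicate 2. Without wavefront replicate 1, where no wavefront read of Tlx2 is left, its fitted log2 fold change was -8.30, a value that depends on the prior count. DESeq2 and the authors' p-values called none of the 4 (adjusted p from 0.0956 for Tlx2 in DESeq2 to 0.9998 for Hoxd3 in DESeq2). Hoxd3 was also lost without trailing replicate 1 or wavefront replicate 1 (edgeR adjusted p = 0.167 and 0.191) and with library totals (0.325) or no filter (0.0654), and Nedd9 without wavefront replicate 1 (0.0541).

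**Figure D5:**
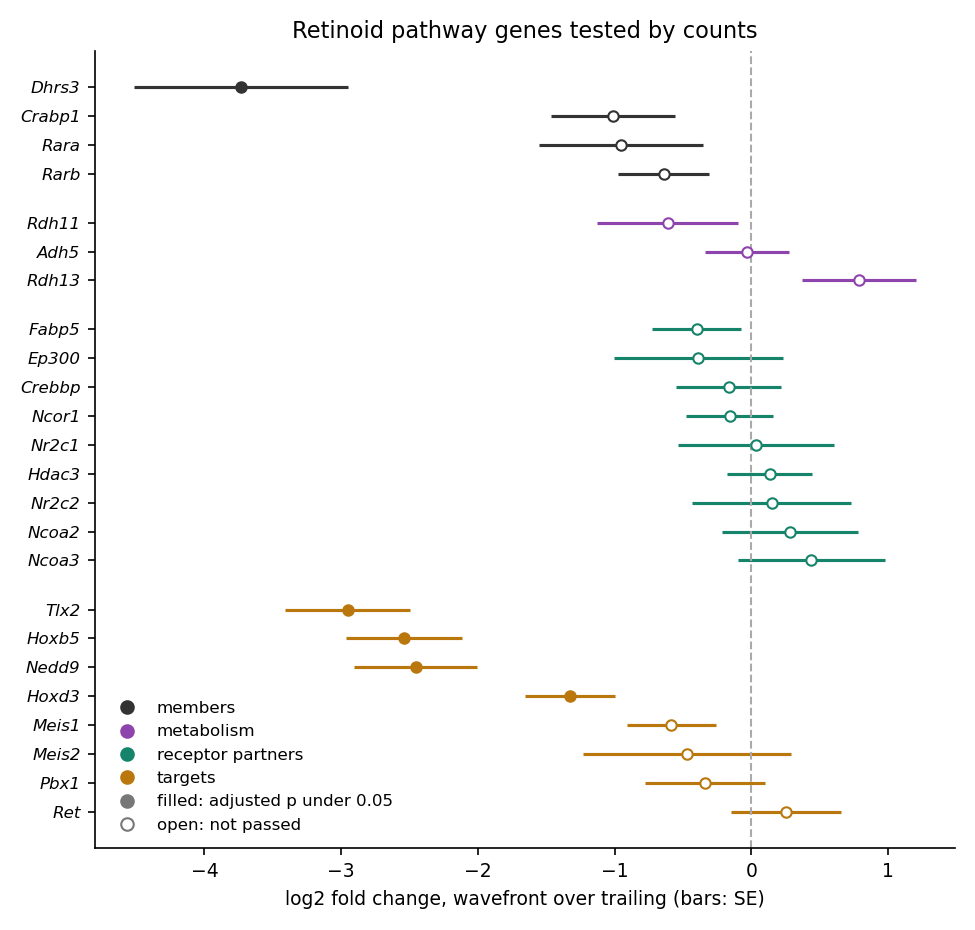
Log2 fold change, wavefront over trailing, with its SE, for the 4 members and 20 other pathway genes tested by counts, grouped by role; filled points passed at an adjusted p under 0.05. The 5 filled points, Dhrs3, Tlx2, Hoxb5, Nedd9 and Hoxd3, all lie below 0. All but Hoxd3 passed the read filter through their trailing libraries alone.

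Genes whose pattern over the 4 libraries was nearest to that of Rarb, by Euclidean distance between centred log2(scaled CPM + 1) values, were Brd7, Kcmf1, Arf2, Wdr61 and Map1lc3b, at distances of 0.0313 to 0.0705. None of the 5 passed the count test (edgeR adjusted p = 0.46 to 0.814), and with 4 libraries such likeness is a description only.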

How the data were processed

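The submitters' processing notes name GRCm38 (mm10) as the build, and STAR 2.5.2b, featureCounts, DESeq2, bcl2fastq 2.17 and FastQC 0.11.9 as tools; annotation, strand and overlap settings: not given in the sources used. Libraries were made with Nextera XT, which keeps no strand, per the labels' protocols. The authors deposited CPM per gene and library, per the file headers; 100% of values were whole multiples of 1 read within 0.01 reads, so reads were recovered. The deposited BaseMean is a signal of reads over size factors, the deposited fold change and standard error are log2 values, the deposited Wald statistic is a score and the deposited p-value is unadjusted. After 428 repeated identifiers were dropped, limma 3.58.1 (trend, log2(CPM + 1), mean CPM above 1) and, on recovered reads, edgeR 4.0.16 (TMM, filterByExpr with 10 reads) were fitted over all genes under R 4.3.3, with location as the only term. DESeq2 1.42.0 was an alternative. P-values are two-sided and Benjamini-Hochberg adjusted. Over all genes tested, log2 fold changes had a median of 0.01 in edgeR, -0.18 with library totals and -0.35 in limma. Fits were tested on simulated data. The members and lists were chosen with earlier results of these data known; 1 listed pathway gene is not reported here and is left out of the list counts, though it stayed in the fits over all genes. Named were all members, and pathway genes that passed and the 2 with the most reads per list that did not. Also named were the 5 genes most like the member with the most reads. The marker with the most reads was named for the crest, neuron, mesenchyme and mesothelium lists only. Genes outside this rule were named after their values were seen. Reads carry no molecular identifiers, so intervals cover counting error only. Exon lengths and overlaps are those of GENCODE M21 (GRCm38), and promoter windows are from RefSeq.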

Additional observations from a re-analysis of the deposited data

How the results depend on the processing

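The number of members called by the count test was 1, and it was 0 with DESeq2, where Dhrs3 had no adjusted p, 0 by the authors' p-values and 0 to 1 with 1 library left out. Over all genes it was 100, against 13 with DESeq2, 13 by the authors' p-values and 0 to 161 with 1 library left out. The other pathway genes called were 4, against 0 with DESeq2, 0 by the authors' p-values and 0 to 4 with 1 library left out. In limma 0 genes passed, against 3 with a pseudocount of 5, 5 with no filter, 45 with a mean CPM above 20, 2 with DESeq2 size factors and 0 to 586 with 1 library left out. The labels do not say whether equal replicate numbers mark paired libraries. The correlation of deviations between libraries of the same number was 0.06, which cannot decide it with so few libraries. With the replicate number as a block limma called 52 genes and 1 member, Dhrs3, and edgeR called 78 genes and the same 1 member. With 1 library left out, the lone library is assumed to vary like the other group. Of 228 values of single genes under alternatives, 199 kept direction and side of the threshold, 21 lost the call, 1 gained it and 7 turned sign: Aldh1a2 in limma (0.046 with a pseudocount of 5, and -3.03 to 1.77 with 1 library left out), Adh5 (-0.21 to 0.18 with 1 left out), Hdac3 (-0.098 with library totals, -0.011 to 0.35 with 1 left out) and Ret (-0.61 to 0.77 with 1 left out). The cause of these shifts was not tested. Depth limits Crabp2, Rarg, Rxrg and Aldh1a2 to 14 reads or fewer in all.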
